A study of Mus musculus with 9 samples.

Results

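The interferon response genes are transcripts that cells raise when interferon binds its receptor, and a list of 42 of them was followed through 9 expression arrays of mouse regulatory T cells, the CD4+ T cells that restrain other immune cells. The list names genes known to be induced and uses no measured value, but it was chosen with earlier results of these data known. Of the 42 genes, 35 had a probe set annotated to them alone, and 34 of these were bright enough to be tested, out of 7436 tested among 12393 genes on the array. Ifi204, a DNA sensor of the p200 family, lay below the signal threshold on every array, at log2 signals of 2.08 to 2.36. Isg15 and Tgtp1 had only probe sets annotated to several genes, and Ifi44, Ddx58, Xaf1, Ifi27 and Ly6e are not analysed here. By the interferon that mainly induces them, 25 of the tested genes were assigned to type I and 9 to type II.

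The cells were separated with magnets as CD4+CD25+ from mice of the strain C57BL6, and each of 3 groups has 3 arrays: wild type, and conditional knockouts of Sirt1 by CD4-cre or by Foxp3-cre. The product of Sirt1 is a deacetylase that consumes NAD, and the series asks how targeting it affects the function of regulatory T cells. The CD4 promoter is active from an immature stage of T cell development, so CD4-cre also acts in T cells that are not regulatory, while Foxp3-cre acts where Foxp3, the factor defining regulatory T cells, is transcribed. Whether the wild type animals carried a Cre or a floxed Sirt1 allele, the ages of the animals, and the number of animals behind a sample were not given in the sources. The samples of a group are called independent in the series' design text, but separate animals are not stated, and p-values therefore measure the spread among these samples only, some of which may be technical. In bulk RNA such as this, fewer cells of a type and less RNA per cell cannot be told apart.

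Type I interferons, the alpha and beta families, signal through the receptor IFNAR and the kinases JAK1 and TYK2 to a complex holding STAT2 and IRF9 that binds the interferon-stimulated response element (ISRE). Type II interferon, the product of Ifng, signals through the receptor IFNGR, JAK1 and JAK2 to the gamma-activated site (GAS) of its target genes. The induced genes sense foreign nucleic acids, block viral RNA and protein synthesis, present antigen, and feed back on the pathway.

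All signals are on the log2 scale, where 1 unit is a 2-fold change. Sirt1 itself had signals of 7.91, 6.77 and 7.90 on the wild type arrays, 7.69, 7.59 and 7.59 on the CD4-cre arrays and 7.66, 7.54 and 7.47 on the Foxp3-cre arrays. The differences of 0.10 and 0.03 did not pass the test (limma adjusted p = 0.882 and 0.958). They rest on wild type replicate 2, which was below every knockout array, while the other wild type arrays were above every knockout array. Differences without that array are not given for Sirt1. The position of its probes relative to the deleted part is not given, so this signal does not check the labels. Foxp3 had signals of 9.16 to 9.69 on the 6 wild type and CD4-cre arrays and 2.67 to 3.38 on the 3 Foxp3-cre arrays, where it fell by 6.44 (limma adjusted p = 2.16e-07). The signal of the marker that defines regulatory T cells was thus near the lower end of the scale in that group. Of 8 tested regulatory T cell markers Foxp3 alone passed there, and the median difference of the 8 was 0.04. Why the Foxp3 signal fell was not tested. The mean signal of 7 T cell markers lay between 10.59 and 10.78 on all 9 arrays. Wild type replicate 2 stood apart, with correlations of 0.982 to 0.987 to the other arrays against 0.992 or more among those, and a 5' minus 3' signal of -1.53 for beta-actin against -0.68 to -0.45. Counts are therefore also given without it.

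The promoters were searched for the letters by which both pathways are known. Both strands of a window from 250 bases before to 50 bases after the start of each gene were searched for the core of the ISRE, GAAA, any 2 bases and GAAA again, and for the GAS, TTC, any 3 bases and GAA. Of the 34 tested genes 28 had a promoter in the RefSeq table of the build GRCm38.p6. The ISRE core was found in 14 of the 28 (50%), against 3.44% of all 32851 promoters and 4.06% of the 6113 tested genes with a promoter. The GAS was found in 10 of the 28 (35.7%), against 8.30% of all promoters and 8.42% of the tested genes. A match is a run of letters and not a measured binding site.

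The promoters of 5 genes are shown as the 250 bases before the start, read 5' to 3' along the gene, with every match of the ISRE core on either strand in capitals. The first 4 hold a match and belong to the genes with the smallest p among those that do, and Oasl1 is shown because it had the largest difference that passed the test. Rsad2 lies on the minus strand at chr12:26456453-26456702, Cxcl10 on the minus strand at chr5:92348890-92349139, Oas1a on the minus strand at chr5:120907526-120907775, Ifit1 on the plus strand at chr19:34640639-34640888 and Oasl1 on the plus strand at chr5:114922990-114923239.
Rsad2: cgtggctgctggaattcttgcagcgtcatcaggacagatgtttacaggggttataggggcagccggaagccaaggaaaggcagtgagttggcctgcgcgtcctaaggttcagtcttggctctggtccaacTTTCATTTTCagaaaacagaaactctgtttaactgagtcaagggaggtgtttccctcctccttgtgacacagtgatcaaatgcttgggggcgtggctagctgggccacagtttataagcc
Cxcl10: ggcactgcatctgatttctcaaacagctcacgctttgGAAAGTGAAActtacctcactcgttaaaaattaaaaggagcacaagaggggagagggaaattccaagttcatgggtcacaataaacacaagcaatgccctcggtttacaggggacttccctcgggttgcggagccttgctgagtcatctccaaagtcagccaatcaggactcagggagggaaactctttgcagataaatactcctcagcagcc
Oas1a: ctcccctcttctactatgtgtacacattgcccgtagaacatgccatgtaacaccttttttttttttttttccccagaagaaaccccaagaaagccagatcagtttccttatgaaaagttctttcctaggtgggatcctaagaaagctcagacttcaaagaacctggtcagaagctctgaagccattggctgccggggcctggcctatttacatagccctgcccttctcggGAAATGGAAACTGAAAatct
Ifit1: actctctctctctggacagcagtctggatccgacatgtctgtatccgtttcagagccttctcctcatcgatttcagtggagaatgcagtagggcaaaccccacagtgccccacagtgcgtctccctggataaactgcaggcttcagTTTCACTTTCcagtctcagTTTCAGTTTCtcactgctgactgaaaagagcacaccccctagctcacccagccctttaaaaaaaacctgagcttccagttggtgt
Oasl1: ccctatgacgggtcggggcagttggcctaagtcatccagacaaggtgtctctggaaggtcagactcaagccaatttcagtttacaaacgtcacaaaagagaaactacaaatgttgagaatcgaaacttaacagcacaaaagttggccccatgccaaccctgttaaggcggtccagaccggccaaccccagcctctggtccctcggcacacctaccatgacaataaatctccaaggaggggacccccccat
In Rsad2 the match began 120 bases before the start and in Cxcl10 it began 213 bases before it. Oas1a held 2 overlapping matches, with the first 20 bases before the start, and Ifit1 held 2 that began 104 and 85 bases before it. Oasl1 held 0 matches in this window. Ifi209 held 0 as well, and Parp14 had no promoter in the table.

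The interferon response genes lay lower in both knockouts than in wild type, but few passed the test one by one. In CD4-cre the median difference from wild type over the 34 genes was -0.25 (quartiles -0.41 and -0.06) and 30 of them were lower, against a median of 0.03 and 43.7% lower over all 7436 genes. In Foxp3-cre the median was -0.14 (quartiles -0.27 and -0.03) and 27 were lower, against 0.01 and 48.9%. The 2 knockouts were compared with the same wild type arrays, so these values are not independent of each other.

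Oasl1 and Ifi209 fell in CD4-cre, 2 of 34 genes, where 0.659% of all tested genes passed the limma test at an adjusted p of 0.05 and 0.43% fell. Oasl1, Ifi209 and Parp14 fell in Foxp3-cre, 3 of 34, where 3.36% of all tested genes passed and 1.67% fell. No interferon gene rose in either knockout. At an unadjusted p under 0.05 the counts were 17 of 34 in CD4-cre, against 1047 of all 7436 genes, and 9 of 34 in Foxp3-cre, against 1581 of 7436. All 3 knockout arrays lay below all 3 wild type arrays for 14 of 34 genes in CD4-cre, against 9.16% of all genes, and for 7 in Foxp3-cre, against 12.2%. For 1 gene, Cxcl10, all 3 arrays of each knockout lay above all 3 of wild type, against 11.9% and 11.1% of all genes. In the mean of both knockouts against wild type the same 3 genes fell, where 2.26% of all genes passed.

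Single arrays decided how many genes passed. Without wild type replicate 2 the CD4-cre count was 6, namely Oasl1, Ifi209, Oasl2, Irf9, Trim30a and Gbp2, and the Foxp3-cre count was 6, namely Oasl1, Ifi209, Parp14, Irf9, Irf1 and Gbp2, all lower. Over all genes, 191 and 567 passed without it. The CD4-cre count was 0 without wild type replicate 1, wild type replicate 3, CD4-cre replicate 2 or CD4-cre replicate 3, and 1 without CD4-cre replicate 1 or any of the Foxp3-cre arrays. Leaving out a Foxp3-cre array left the CD4-cre differences as they were (median -0.25) and acted only through the estimate of the spread. The Foxp3-cre count was 1 without wild type replicate 3, where Ifi209 alone passed, and 2 or 3 without each of the other 7 arrays. These fits used fewer arrays, and their counts over all genes are not given here. A general loss of precision is therefore not separated from an effect on the interferon genes. The medians moved less: leaving out each array in turn gave -0.32 to -0.19 in CD4-cre and -0.23 to -0.08 in Foxp3-cre.

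**Figure D1:**
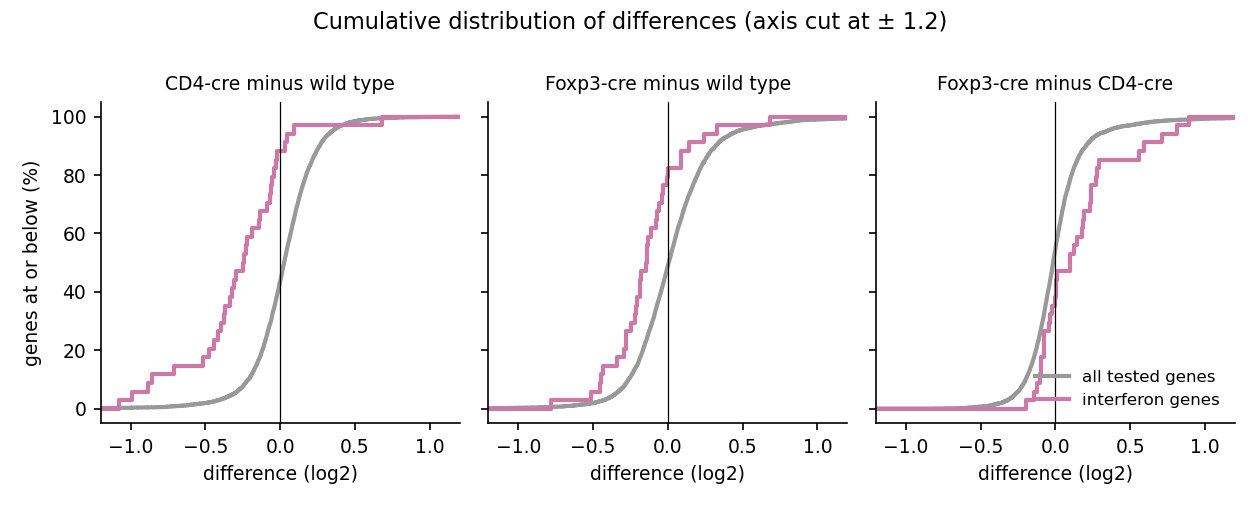
Cumulative share of genes (%, y axis) at or below a log2 difference (x axis, cut at 1.2 on either side) for the 34 tested interferon response genes and all 7436 tested genes, in 3 panels for the 3 contrasts. The curve of the interferon genes lies to the left of that of all genes over most of the range in both comparisons with wild type (medians -0.25 and -0.14) and to the right of it above 0 in Foxp3-cre against CD4-cre (median 0.10).

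**Figure D2:**
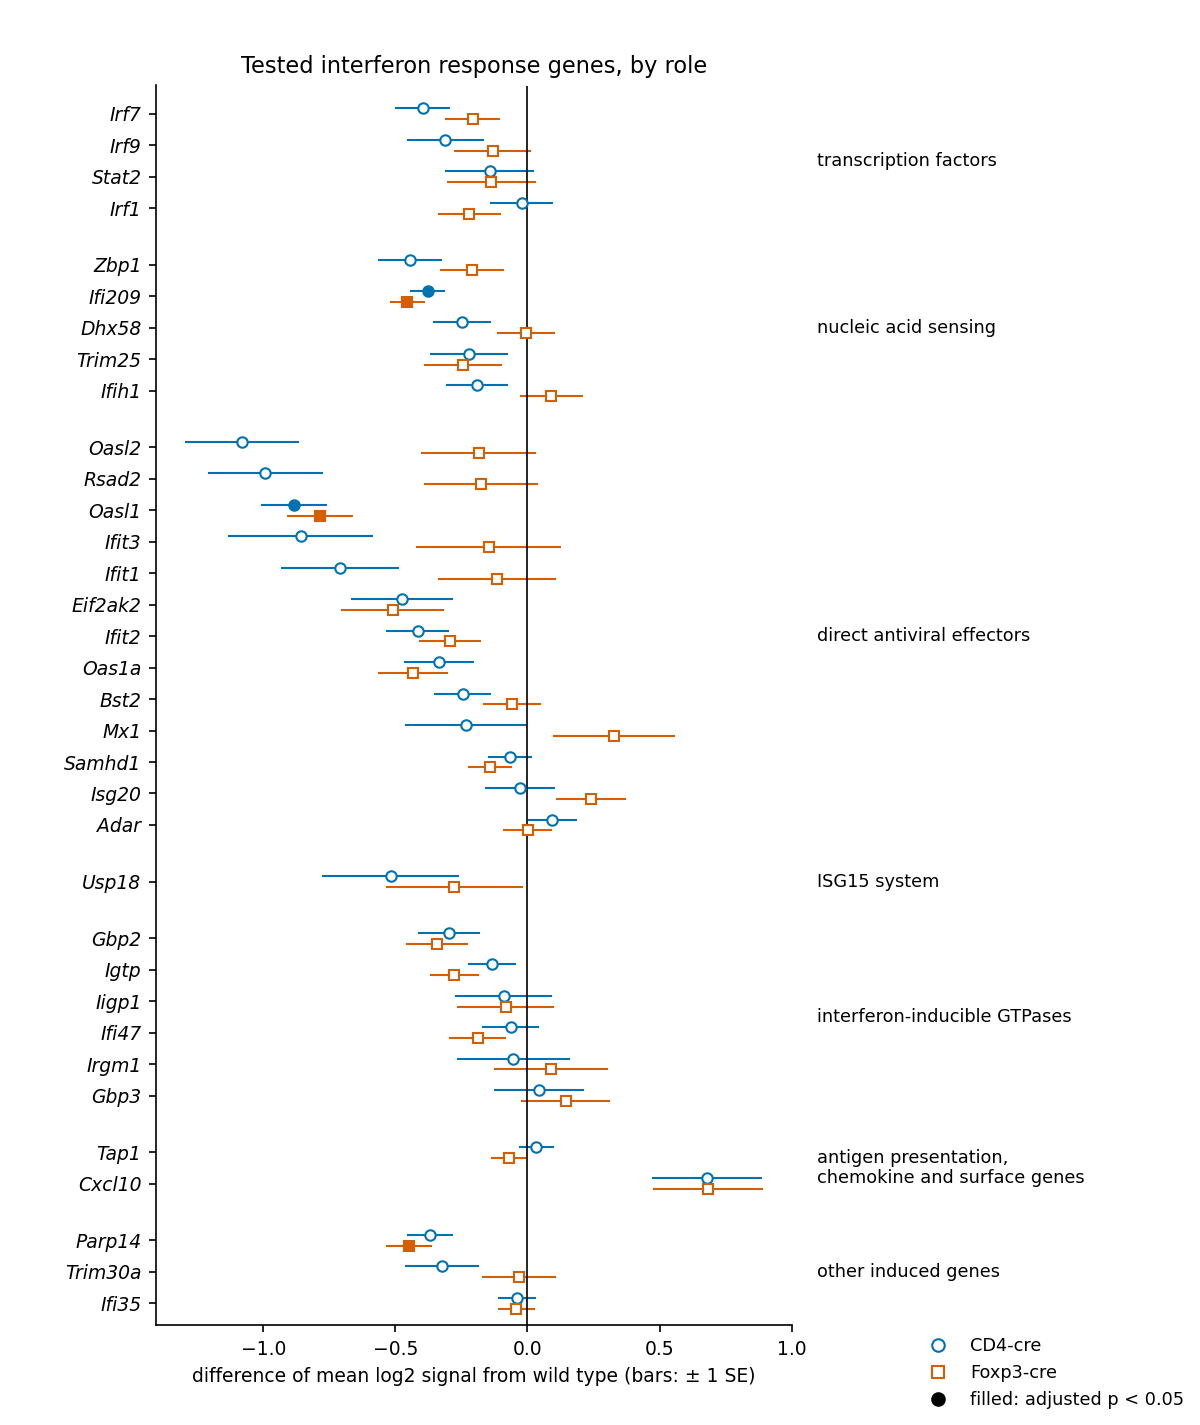
Difference of mean log2 signal from wild type (x axis, bars ± 1 SE) for each of the 34 tested genes, grouped by role, with circles for CD4-cre and squares for Foxp3-cre, filled where the adjusted p was below 0.05. The filled points are Oasl1 and Ifi209 in both knockouts and Parp14 in Foxp3-cre; Oasl2 and Rsad2 lie near -1 in CD4-cre and near -0.2 in Foxp3-cre, and Cxcl10 lies at 0.68 in both.

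The 4 transcription factors of the response lay lower in both knockouts, and none passed the limma test with all 9 arrays (1 in CD4-cre and 0 in Foxp3-cre at an unadjusted p under 0.05). Irf7, the factor that amplifies type I interferon production, had signals of 8.27, 8.32 and 8.14 for wild type, 7.76, 7.96 and 7.81 for CD4-cre and 8.23, 7.91 and 7.96 for Foxp3-cre. The CD4-cre arrays all lay below wild type, with a difference of -0.40 (SE 0.10, limma adjusted p = 0.145), while 1 Foxp3-cre array overlapped wild type and the difference was -0.21 (adjusted p = 0.285). Irf9, the DNA-binding subunit of the complex at the ISRE, had 9.04, 8.48 and 9.11 for wild type, 8.55, 8.59 and 8.56 for CD4-cre and 8.79, 8.74 and 8.70 for Foxp3-cre. Wild type replicate 2 was below every knockout array for Irf9, and the other 2 wild type arrays were above all of them. With all arrays the differences were -0.31 (SE 0.15, limma adjusted p = 0.371) and -0.13 (adjusted p = 0.609), and without wild type replicate 2 they were -0.51 (adjusted p = 0.00895) and -0.33, both past the threshold. Stat2, a subunit of the same complex, differed by -0.14 in each knockout, and by -0.34 in each without wild type replicate 2. Irf1, which the type II pathway induces most directly, differed by -0.02 in CD4-cre and -0.22 in Foxp3-cre. Without that array the values for Irf1 were -0.16 and -0.36, and the Foxp3-cre difference passed (limma adjusted p = 0.0316).

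Of the 5 tested sensors of foreign nucleic acid, 1 fell in each knockout, the same gene in both, where 0.43% and 1.67% of all tested genes fell. Ifi209, a gene of the p200 family, had signals of 10.50, 10.47 and 10.45 for wild type, 10.05, 10.10 and 10.13 for CD4-cre and 10.002, 10.01 and 10.04 for Foxp3-cre. The wild type group did not overlap either knockout, and all 3 groups were narrow. Ifi209 fell by 0.38 in CD4-cre (SE 0.07, limma adjusted p = 0.0432, 1.30-fold) and by 0.45 in Foxp3-cre (SE 0.07, adjusted p = 0.0127, 1.37-fold). The CD4-cre call was lost in 13 of 18 alternatives, among them leaving out any array but wild type replicate 2, with adjusted p up to 0.244, although the difference stayed between -0.40 and -0.35. The Foxp3-cre call was kept without each of the 9 arrays and was lost in a fit of those 2 groups alone (adjusted p = 0.0853). A less bright probe set of Ifi209 gave -0.32 and -0.42, and p200-family genes are similar in sequence, so its signal can hold RNA of relatives.

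Zbp1, a sensor of left-handed nucleic acid that triggers cell death, had signals of 8.36, 8.34 and 8.23 for wild type, 7.71, 7.87 and 8.02 for CD4-cre and 8.35, 7.96 and 8.0 for Foxp3-cre. CD4-cre lay below wild type without overlap at -0.44 (SE 0.12, limma adjusted p = 0.149), and Foxp3-cre overlapped it at -0.21 (adjusted p = 0.345). The probe sets of Zbp1 disagreed: a second one gave 0.13 and 0.31. Ifih1 and Dhx58, receptors of the RIG-I type for viral RNA, differed by -0.19 and -0.25 in CD4-cre and by 0.09 and -0.01 in Foxp3-cre. Trim25, the ubiquitin ligase that activates RIG-I, differed by -0.22 and -0.24, with wild type replicate 2 at 9.90 against 9.23 and 9.42 for the other wild type arrays. Without that array its differences were -0.03 and -0.05.

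The 13 direct antiviral effectors held the largest differences in CD4-cre. Their median was -0.42 there, with 12 of 13 lower and 8 of 13 without overlap below wild type, against 9.16% of all genes. In Foxp3-cre the median was -0.15, with 10 lower and 2 of 13 without overlap, against 12.2% of all genes. Oasl1 alone passed the limma test in each knockout, where 0.659% and 3.36% of all tested genes did. At an unadjusted p under 0.05 there were 9 and 4 of 13, against 1047 and 1581 of all 7436 genes. Oasl1, an oligoadenylate synthetase-like protein that restrains translation of Irf7, had signals of 6.02, 6.08 and 6.10 for wild type, 5.36, 4.94 and 5.25 for CD4-cre and 5.34, 5.08 and 5.42 for Foxp3-cre. Every knockout array was below every wild type array, and the knockouts overlapped each other. Group means were 6.06 ± 0.04, 5.18 ± 0.22 and 5.28 ± 0.18 (SD, n = 3).

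Oasl1 fell by 0.89 in CD4-cre (SE 0.13, limma adjusted p = 0.0168, 1.85-fold) and by 0.78 in Foxp3-cre (SE 0.13, adjusted p = 0.0163, 1.72-fold). The CD4-cre call was lost without wild type replicate 1, wild type replicate 3, CD4-cre replicate 2 or CD4-cre replicate 3, with adjusted p between 0.00410 and 0.0770 over the alternatives. The Foxp3-cre call was lost without wild type replicate 3 and in a fit of those 2 groups alone. In the mean of both knockouts against wild type it passed in all 16 alternatives that could test it.

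Oasl2, a related protein with synthetase activity, had signals of 5.67, 4.98 and 5.83 for wild type, 4.50, 4.40 and 4.34 for CD4-cre and 5.58, 4.99 and 5.36 for Foxp3-cre. The CD4-cre arrays were below all other arrays, and the Foxp3-cre arrays overlapped wild type. All CD4-cre signals of Oasl2 were also below the signal threshold of 4.98. It was tested because its mean over all arrays was 5.07. Its difference in CD4-cre was -1.08 (SE 0.22, limma adjusted p = 0.0706), the largest of the 34 genes, and it was -0.18 in Foxp3-cre (adjusted p = 0.632). Without wild type replicate 2 the CD4-cre difference was -1.34 and passed (adjusted p = 0.00901).

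Several effectors that the naming rule does not pick are described here because of their values. Rsad2, whose product viperin blocks viral replication, had signals of 8.03, 8.29 and 8.11 for wild type, 6.66, 7.43 and 7.36 for CD4-cre and 7.69, 7.88 and 8.32 for Foxp3-cre. CD4-cre lay below both other groups without overlap, at -0.99 from wild type (SE 0.22, limma adjusted p = 0.0898), and Foxp3-cre overlapped wild type at -0.18 (adjusted p = 0.651). The CD4-cre difference of Rsad2 passed with array weights and with the replicate number as a block, and in no other alternative. A second probe set of Rsad2 gave -0.99 and -0.05.

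Ifit1, which binds RNA with an incompletely methylated cap, had 8.36, 7.92 and 7.96 for wild type, 7.29, 7.62 and 7.20 for CD4-cre and 8.5, 7.71 and 7.67 for Foxp3-cre. Its family member Ifit3 had 7.40, 7.25 and 6.85 for wild type, 6.11, 6.68 and 6.14 for CD4-cre and 7.66, 6.61 and 6.79 for Foxp3-cre. For both, the CD4-cre arrays were below wild type without overlap, at -0.71 and -0.86 (limma adjusted p = 0.208 and 0.215), and Foxp3-cre replicate 1 was the highest of all 9 arrays. Ifit2 differed by -0.42 in CD4-cre and -0.29 in Foxp3-cre. The 3 Ifit genes lie on chromosome 19, and the Oas genes here all lie on chromosome 5.

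Oas1a, which makes the 2'-5' oligoadenylate that activates RNase L, had 8.48, 8.78 and 8.28 for wild type, 8.04, 8.26 and 8.24 for CD4-cre and 7.93, 8.13 and 8.18 for Foxp3-cre. Both knockouts lay below wild type without overlap, at -0.33 and -0.43 (limma adjusted p = 0.303 and 0.103). Eif2ak2, the kinase PKR that halts translation, differed by -0.47 and -0.51 (adjusted p = 0.321 and 0.174). Wild type replicate 2 was the highest array for Oas1a and for Eif2ak2. Without that array Oas1a differed by -0.20 and -0.30, and Eif2ak2 by -0.30 and -0.34. Bst2, the tetherin that holds budding virus, differed by -0.24 and -0.06. Mx1, a dynamin-like GTPase, differed by -0.23 and 0.33, and Isg20, an RNA exonuclease, by -0.03 and 0.24. Samhd1, which depletes nucleotides, and Adar, which edits double-stranded RNA, stayed within 0.14 of wild type in both. For none of these 6 did the limma test pass in either knockout, while Eif2ak2 and Bst2 in CD4-cre and Eif2ak2 in Foxp3-cre had an unadjusted p under 0.05.

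**Figure D3:**
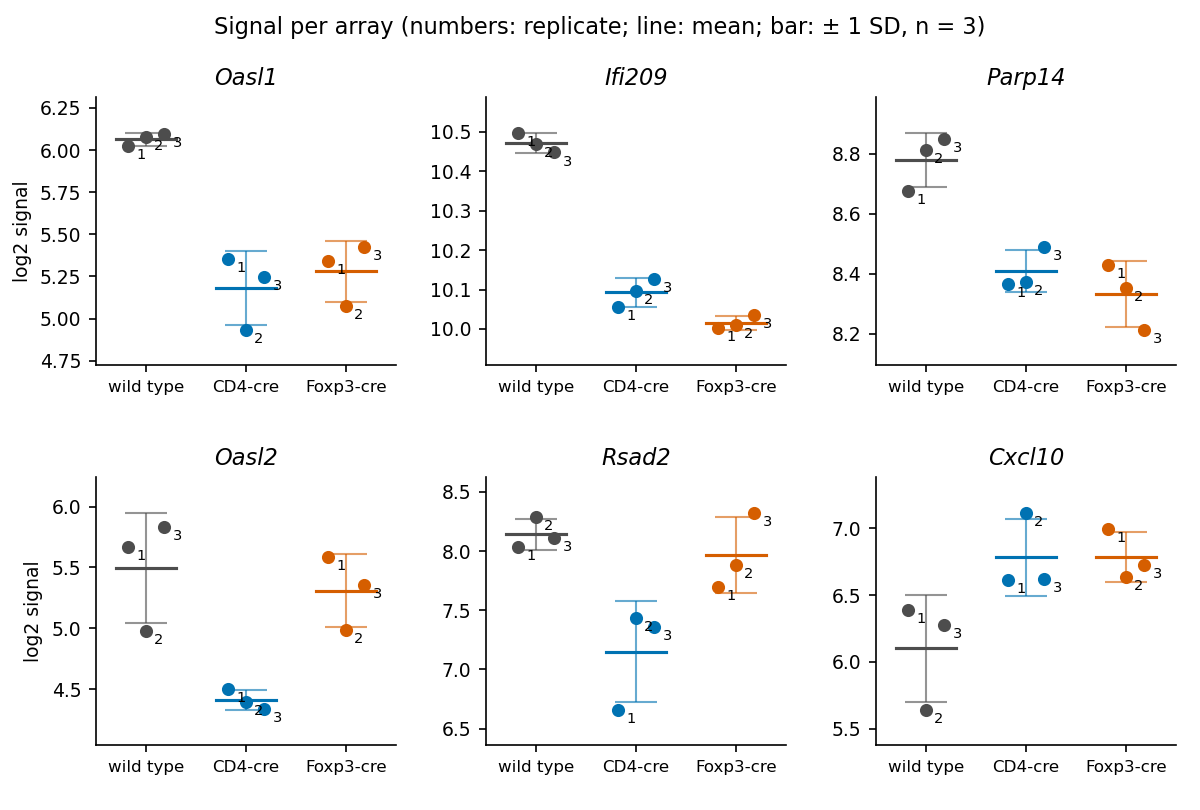
Log2 signal (y axis, a separate scale in each panel that does not start at 0) of 6 genes on each array, with points numbered by replicate, a line at the group mean and a bar of ± 1 SD (n = 3). Oasl1, Ifi209 and Parp14 are lower in both knockouts than in wild type, Oasl2 and Rsad2 are low on the 3 CD4-cre arrays, and Cxcl10 is lowest on wild type replicate 2 at 5.64.

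Usp18, which removes ISG15 from proteins and shuts down the type I receptor, was the tested gene of the ISG15 system. It had signals of 8.78, 7.76 and 8.34 for wild type, 7.63, 7.85 and 7.85 for CD4-cre and 8.48, 7.78 and 7.79 for Foxp3-cre. The groups overlapped, with wild type replicate 2 as low as most knockout arrays, and the differences of -0.52 and -0.28 did not pass (limma adjusted p = 0.405 and 0.545). Without that array they were -0.78 and -0.54.

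The 6 tested interferon-inducible GTPases, which attack the vacuoles of intracellular pathogens, had no call in either knockout. Their medians were -0.08 in CD4-cre and -0.13 in Foxp3-cre, with 5 and 4 lower, and 0 passed the limma test (1 and 2 at an unadjusted p under 0.05). Gbp2, a guanylate-binding protein, had 9.53, 9.05 and 9.33 for wild type, 8.94, 9.03 and 9.05 for CD4-cre and 9.05, 8.96 and 8.88 for Foxp3-cre. Wild type did not overlap either knockout, although its replicate 2 was nearly as low as the highest knockout arrays, and the knockouts overlapped each other. The differences were -0.30 (SE 0.12, limma adjusted p = 0.303) and -0.34 (adjusted p = 0.139). They were -0.42 and -0.47 without wild type replicate 2, and both passed. A second probe set of Gbp2 gave -0.14 and -0.07.

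Igtp, an immunity-related GTPase, had 10.84, 10.62 and 10.68 for wild type, 10.56, 10.58 and 10.60 for CD4-cre and 10.58, 10.41 and 10.32 for Foxp3-cre. Both knockouts lay below wild type without overlap, by -0.13 and -0.28 (limma adjusted p = 0.526 and 0.128). Irgm1 and Gbp3 differed by -0.05 and 0.04 in CD4-cre and by 0.09 and 0.14 in Foxp3-cre. Leaving out wild type replicate 2 put both below wild type, at -0.33 and -0.16 for CD4-cre and at -0.19 and -0.06 for Foxp3-cre. Iigp1 and Ifi47 differed by -0.09 and -0.06, and by -0.08 and -0.19, and without that array by -0.18 and -0.15, and by -0.17 and -0.28. Of the 6, Gbp2 and Igtp were the ones whose knockout arrays all lay below wild type, against 9.16% of all genes in CD4-cre and 12.2% in Foxp3-cre.

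Cxcl10, the chemokine that draws CXCR3-bearing T cells, was the one gene whose arrays were all higher in each knockout. It had signals of 6.39, 5.64 and 6.28 for wild type, 6.61, 7.12 and 6.62 for CD4-cre and 6.99, 6.64 and 6.73 for Foxp3-cre. All knockout arrays were above all wild type arrays, and both differences were 0.68 (SE 0.21), neither past the limma threshold (adjusted p = 0.197 and 0.104). Both were 0.45 without wild type replicate 2, its lowest array. Tap1, the peptide transporter of antigen presentation, had 9.49, 9.49 and 9.55 for wild type, 9.51, 9.56 and 9.56 for CD4-cre and 9.47, 9.45 and 9.40 for Foxp3-cre, and its differences were 0.03 and -0.07.

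Parp14, an ADP-ribosyltransferase on chromosome 16, had signals of 8.68, 8.81 and 8.85 for wild type, 8.37, 8.37 and 8.49 for CD4-cre and 8.43, 8.35 and 8.21 for Foxp3-cre. Neither knockout overlapped wild type. It fell by 0.45 in Foxp3-cre (SE 0.09, limma adjusted p = 0.0290, 1.36-fold), and its difference of -0.37 in CD4-cre did not pass (SE 0.09, adjusted p = 0.109). The Foxp3-cre call was kept in 11 of 18 alternatives, and was lost in a fit of those 2 groups alone, without wild type replicate 3, without any 1 of the CD4-cre arrays, and without Foxp3-cre replicate 2 or 3, with adjusted p up to 0.135. Trim30a, a ubiquitin ligase that restrains inflammatory signalling, had 9.18, 8.68 and 9.22 for wild type, 8.69, 8.74 and 8.70 for CD4-cre and 9.15, 8.91 and 8.93 for Foxp3-cre. Here too wild type replicate 2 was the lowest of its group, and the differences were -0.32 and -0.03 (limma adjusted p = 0.346 and 0.916). Without that array Trim30a differed by -0.50, which passed (adjusted p = 0.0221), and by -0.21. Ifi35 differed by -0.04 in each, and by 0.01 in each without that array.

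The genes were also read by type, with no test between the lists. In CD4-cre the 25 type I genes had a median of -0.33 with 24 lower, and the 9 type II genes had a median of -0.05 with 6 lower. In Foxp3-cre the medians were -0.15 with 21 lower and -0.08 with 6 lower. Without Foxp3-cre replicate 1 those became -0.22 and -0.23, and without wild type replicate 2 they became -0.20 and -0.19. With all 9 arrays, 0 of the 9 type II genes passed the limma test in either knockout (2 and 3 at an unadjusted p under 0.05). When wild type replicate 2 was left out, Gbp2 passed in both (adjusted p = 0.0438 and 0.0209) and Irf1 passed in Foxp3-cre (adjusted p = 0.0316), both of type II. Without wild type replicate 1 the type II median in CD4-cre turned to 0.03, with 3 of 9 lower, and without wild type replicate 2 it was -0.16, against -0.36 for type I.

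Over the 9 arrays, the median deviation of the 25 type I genes from their 9-array mean was 0.23, 0.11 and 0.16 for wild type, -0.19, -0.13 and -0.19 for CD4-cre and 0.12, -0.09 and -0.05 for Foxp3-cre. The 3 CD4-cre arrays were the lowest of the 9, and Foxp3-cre replicate 1 lay within the range of the wild type arrays. For the type II genes the values were 0.26, -0.13 and 0.08 for wild type, 0.00, 0.00 and 0.06 for CD4-cre and 0.02, -0.12 and -0.18 for Foxp3-cre, and the groups overlapped. Without Foxp3-cre replicate 1 the median of all 34 genes in Foxp3-cre was -0.23, with 30 lower.

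**Figure D4:**
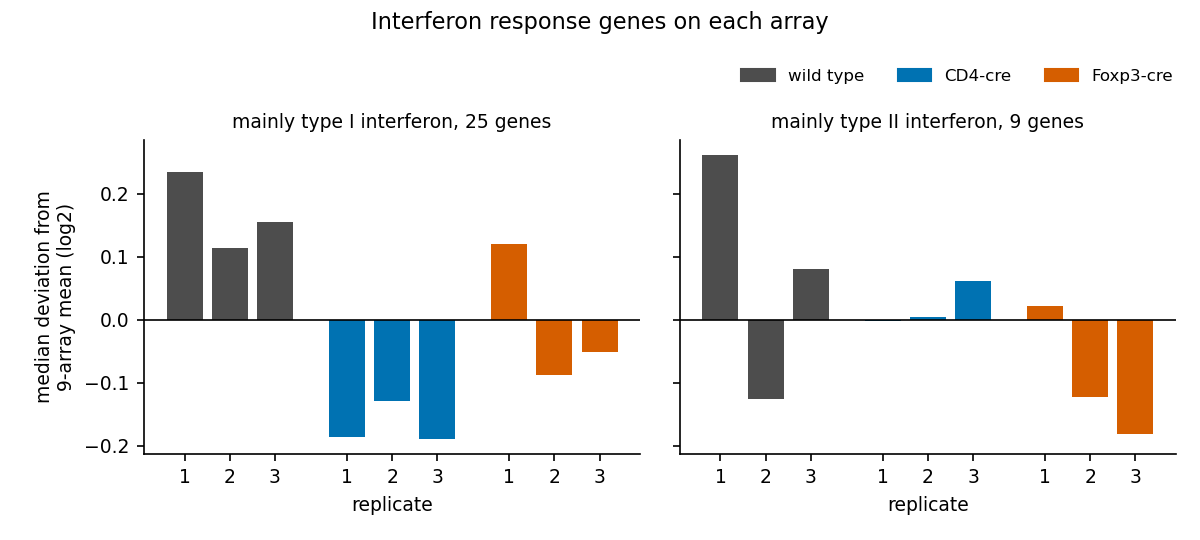
Median deviation from the 9-array mean (log2, y axis) on each array (x axis, replicate), for the 25 type I genes (left) and the 9 type II genes (right), with bars coloured by group. On the left the wild type bars are 0.23, 0.11 and 0.16, the CD4-cre bars are all below 0 and the Foxp3-cre bars are split, with replicate 1 at 0.12; on the right the groups overlap.

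The spread within groups also differed. The median SD of the 34 genes over 3 arrays was 0.22 for wild type, 0.083 for CD4-cre and 0.15 for Foxp3-cre, against 0.18, 0.062 and 0.087 over all tested genes. Of the 34 genes 20 were widest in wild type and 25 were narrowest in CD4-cre. Wild type replicate 2 held the lowest signal of the 9 arrays for 8 genes and the highest for 5, and Foxp3-cre replicate 1 held the highest for 8.

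The knockouts themselves differed by less than the test could call. In Foxp3-cre minus CD4-cre the median over the 34 genes was 0.10 with 21 higher, against -0.02 over all genes. The limma test passed for 0 of the 34 and for 0.0134% of all genes (6 of the 34 and 840 of all 7436 genes had an unadjusted p under 0.05). For 7 genes all Foxp3-cre arrays lay above all CD4-cre arrays, against 10.9% of all genes, and for 3 they lay below, against 18.8%. Oasl2 was higher in Foxp3-cre by 0.90 (SE 0.22, limma adjusted p = 0.221) and Rsad2 by 0.82 (SE 0.22, adjusted p = 0.238). The CD4-cre signals of Oasl2 were below the signal threshold. Oasl1 differed by 0.10 (SE 0.13) and Ifi209 by -0.08 (SE 0.07). Leaving out wild type replicate 2 changed this contrast only through the estimate of the spread, since the tested genes stayed the same. Oasl2 then passed at the same difference (limma adjusted p = 0.0387). Without Foxp3-cre replicate 1 the median over the 34 genes was 0.01.

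By promoter, the 14 genes with an ISRE core differed by a median of -0.27 (CD4-cre) and -0.13 (Foxp3-cre), with 12 and 10 lower. The 14 genes whose window held no ISRE core had medians of -0.14 and -0.19, with 12 lower in each. Rsad2, Ifit1, Oas1a and Cxcl10, whose promoters are printed above, all hold the core, and Cxcl10 was higher in both knockouts while the other 3 were lower.

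Among the interferons, Ifng fell in both knockouts. It had signals of 8.65, 8.54 and 8.49 for wild type, 7.84, 7.63 and 7.80 for CD4-cre and 7.51, 7.27 and 7.40 for Foxp3-cre, with no overlap between any 2 groups. Ifng fell by 0.80 in CD4-cre (SE 0.09, limma adjusted p = 0.00726) and by 1.17 in Foxp3-cre (SE 0.09, adjusted p = 0.000510). Of the 15 interferon genes listed, 8 lay below the signal threshold, among them Ifnb1 at 3.34 to 4.0, 5 are not analysed here, and Ifnz was the other tested gene and did not pass. The part of Ifng in the differences of the interferon response genes was not tested.

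Of 10 tested receptors, kinases and phosphatases of the pathway, 0 passed the limma test in CD4-cre (0 at an unadjusted p under 0.05). In Foxp3-cre 1 passed, where 3.36% of all tested genes did. It was Ptpn11, a phosphatase, which rose by 0.35 (SE 0.07, limma adjusted p = 0.0412). Of 9 feedback inhibitors and 10 genes upstream of interferon production, 0 passed in either knockout (1 and 1 inhibitors, and 0 and 3 upstream genes, at an unadjusted p under 0.05). The inhibitors with the largest differences were Socs1 at 0.36 and 0.21 and Tnfaip3 at 0.23 and 0.31. Wild type signals, in order of replicate, were 6.79, 5.63 and 6.66 for Socs1 and 7.08, 5.90 and 7.52 for Tnfaip3. Knockout signals lay between 6.49 and 6.86 for Socs1 and between 6.86 and 7.29 for Tnfaip3. The positive differences of both genes thus rest on wild type replicate 2, and differences without it are not given for them. The upstream genes with the largest were Irf4 at 0.21 and 0.69 and Irf8 at 0.18 and 0.43.

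A further list of 50 induced antiviral genes, 32 of them tested, had medians of -0.23 in CD4-cre with 26 lower and -0.06 in Foxp3-cre with 22 lower. None passed the limma test in CD4-cre (13 at an unadjusted p under 0.05, against 1047 of all 7436 genes). In Foxp3-cre 2 of 32 fell, where 1.67% of all tested genes fell. The 2 were the Schlafen genes Slfn2, by 0.37 (SE 0.09, adjusted p = 0.0485), and Slfn8, by 0.60 (SE 0.13, adjusted p = 0.0412). A further list of type II genes, 17 tested, had medians of 0.02 and 0.00, and 0 passed (2 and 3 at an unadjusted p under 0.05). Irgm2, a GTPase, had the largest difference there, at -0.52 and -0.63.

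Markers of some other cells moved with the groups. The means of NK cell markers in both knockouts lay below wild type without overlap. Those of neutrophil and CD8 T cell markers in Foxp3-cre lay above it, and those of B cell markers in CD4-cre barely did. Otherwise the means of these lists overlapped wild type. The mean signal of 6 tested NK cell markers was 7.74 to 7.84 for wild type, 6.83 to 7.61 for CD4-cre and 6.65 to 7.44 for Foxp3-cre; 5 and 6 of the 6 were lower, and Prf1 fell in Foxp3-cre by 0.86 (SE 0.19, limma adjusted p = 0.0432). The mean of 9 neutrophil markers was 7.79 to 8.76, 8.23 to 9.01 and 9.11 to 10.03. Of these markers 5 rose in Foxp3-cre, where 126 of all 7436 tested genes rose. The mean of 9 monocyte and macrophage markers was 6.20 to 6.65, 5.94 to 7.07 and 6.65 to 8.10, with C1qb up in Foxp3-cre. That of 6 B cell markers was 5.95 to 6.61, 6.61 to 6.73 and 6.01 to 7.47. Of 4 tested markers of plasmacytoid dendritic cells, which make much type I interferon, Ccr9 fell in both knockouts, by 0.75 and 1.03. The other 3 were higher in both, and none of these passed. Ccr9 is also a homing receptor of T cells, and the mean of the 6 measured markers stayed between 5.70 and 6.22. The mean of 6 dendritic cell markers stayed between 4.51 and 4.94 and that of 2 CD8 T cell markers between 5.31 and 6.13. None of the tested genes of either list passed. Among 8 regulatory T cell markers Foxp3 in Foxp3-cre was the one that passed. Below the signal threshold lay 2 B cell, 2 plasmacytoid dendritic cell, 3 dendritic cell and 3 monocyte and macrophage markers. They were not tested but are part of the means given here. The part of these cells in the differences of the interferon response genes was not tested.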

How the data were processed

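RNA of 9 samples was amplified, labelled with biotin and measured on 1 Affymetrix array each, per the labels' protocols. The deposited values are log2 signals per probe set, made by the authors with RMA, per the submitters' processing notes; no version or genome build is named in those notes. RMA normalizes between arrays, which removes a change common to all genes, and compresses differences of dim probe sets. The values span 1.57 to 14.06, with array medians of 5.37 to 5.45. With 3 arrays per group, their number limits the precision, and the median SE of a difference of 2 groups was 0.11.

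Of 22690 probe sets, 64 controls were left out, 20380 carried 1 gene symbol in the platform annotation and 691 carried several. Each of 12393 genes was represented by its probe set with the highest mean, and the test took the 7436 genes whose mean reached the 40th percentile of gene means (4.98). The test was limma's (version 3.58.1, under R 4.3.3, by lmFit and eBayes) in 1 fit over the 3 groups, with 6 residual degrees of freedom, two-sided, with Benjamini-Hochberg adjustment over all 7436 genes at 0.05. Every adjusted p is limma's, and a difference has the first-named group minus the second. The script recovered known changes in data simulated on these genes.

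Groups come from the labels. Deviations of same-numbered arrays correlated at 0.25, 0.20 and 0.25 between wild type and Foxp3-cre, and with CD4-cre they reached from -0.03 to 0.49. Such correlations were not computed for arrays of different numbers, so these values cannot show whether the numbers pair the groups. The labels do not say so either, and the main fit has no replicate block. Genes with values on every array are those that passed in any of 4 contrasts and the 2 of each role with the largest mean difference of both knockouts; others are said to be described for their values. Of further lists, genes that passed are named, or else the 2 with the largest difference. The genes and lists were chosen with earlier results of these data known. Alternatives were the mean of a gene's probe sets, no filter or one at the 60th percentile, quantile normalization, median centring, a trended robust fit, array weights, a fit of the compared groups alone, the replicate number as a block, and leaving out each array. Promoters come from a RefSeq table of GRCm38.p6. No set test was run.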

Additional observations from a re-analysis of the deposited data

How the results depend on the processing

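The median differences of the 34 genes kept their sign under every alternative run: -0.32 to -0.19 in CD4-cre, -0.23 to -0.08 in Foxp3-cre, 0.01 to 0.17 in Foxp3-cre minus CD4-cre and -0.26 to -0.13 for both knockouts. Counts of genes past the limma threshold moved more. In CD4-cre the count of 2 became 1 with the mean of probe sets, no filter, the 60th percentile filter, quantile normalization or a fit of the 2 groups alone, and 16 with array weights; leaving out 1 array gave 0 to 6. In Foxp3-cre the count of 3 became 14 with array weights and 0 in a fit of the 2 groups alone, and leaving out 1 array gave 1 to 6. In Foxp3-cre minus CD4-cre the count of 0 became 3 with array weights, and leaving out 1 array gave 0 to 1. For both knockouts the count of 3 became 17 with array weights, and leaving out 1 array gave 2 to 8, with 8 without wild type replicate 2. Array weights raised the count over all genes as well, to 1298 in CD4-cre and 1539 in Foxp3-cre. The 60th percentile filter left Oasl1 untested. With the replicate block, Foxp3-cre kept the same 3 genes, Oasl1, Ifi209 and Parp14. In CD4-cre the block gave 3 genes against wild type (Oasl1, Oasl2 and Rsad2, without Ifi209), and it gave 1 gene, Oasl2, in Foxp3-cre minus CD4-cre. Arrays of the 3 groups are known to share only a number. Without wild type replicate 2 the sign turned for Gbp3, Irgm1, Adar and Ifi35 in at least 1 knockout. For genes with values on every array, signs turned in differences near 0. In Foxp3-cre minus wild type the mean of probe sets gave 0.052 for Zbp1 and 0.0099 for Trim30a, and leaving out 1 array gave -0.21 to 0.066 for Trim30a. In Foxp3-cre minus CD4-cre the mean of probe sets gave 0.013 for Gbp2, and Cxcl10 was at -0.013 with quantile normalization, -0.010 with median centring and -0.083 with array weights; leaving out 1 array gave -0.10 to 0.17 for Cxcl10 and -0.022 to 0.20 for Oasl1. The cause of these shifts was not tested. Of 10 other probe sets above the signal threshold, 9 had the direction of the one used in CD4-cre and 8 in Foxp3-cre.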
